A study of Homo sapiens with 12 samples.

Results

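The genes described here are 38 members of the pathway by which a cell digests its own contents: 17 genes of the autophagy machinery, the transcription factor gene TFEB and 20 lysosomal genes. They were picked by gene symbol from a fixed list, with no threshold on their values, out of 20046 genes with a probe on the Illumina HumanHT-12 V4 array, a bead array with 1 fluorescence reading per probe. The cells were 2 established human gastric adenocarcinoma lines, AGS and MKN45, each treated with Verteporfin (VP) or with DMSO, the solvent that served as control, with 3 arrays in each of the 4 groups. The labels give a treatment of 36 hours for all groups and the methods a longer time, and neither gives a dose or a light exposure for the arrays. All cells were grown in RPMI1640 medium. Whether the 3 arrays of a group represent separate cultures is not stated, and a p-value here reflects array-to-array spread that may be technical. The RNA was from bulk cultures, in which fewer cells of a kind and less RNA per cell cannot be told apart.

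In autophagy, a kinase complex around ULK1 starts a cup-shaped membrane, lipid kinase and lipid-binding proteins mark it, and 2 ubiquitin-like conjugation systems attach LC3 and GABARAP proteins to it. Receptors such as p62, the product of SQSTM1, bring cargo to these proteins. The closed autophagosome fuses with the lysosome, whose proton pump acidifies the lumen in which cathepsins and glycosidases work. TFEB and its relatives bind an E-box motif, found in the CLEAR element (coordinated lysosomal expression and regulation), in promoters of many of these genes. VP is a porphyrin drug activated by light in the eye clinic and used without light as a blocker of the YAP-TEAD interaction. In other cells it has been described as an inhibitor of autophagosome formation that cross-links p62 protein, an effect on protein that an expression array does not read.

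Stretches of 7 promoters are shown first: those of GAA and MCOLN1, which hold the CLEAR element, of LAMP1 and CTSA, which hold several copies of its core, of CTSD, a gene called higher in both lines below, of ATG3, the one autophagy gene with the core, and of MAP1LC3B, described in detail below. Promoter windows of 300 bases, from 250 before to 50 after the start of the gene, were taken from RefSeq on GRCh38.p14, and 31 of the 38 members had at least 1 window. The motifs searched on both strands were the E-box core CACGTG, the CLEAR element, which is that core with GT before it and AC after it, and TGACNNNGC, the antioxidant response element bound by NRF2. The stretches below end at the base before the start of the gene, and capitals mark a CLEAR element or a CACGTG core, except in the last, where they mark TGACNNNGC.
GAA (chr17:80101481-80101580, + strand): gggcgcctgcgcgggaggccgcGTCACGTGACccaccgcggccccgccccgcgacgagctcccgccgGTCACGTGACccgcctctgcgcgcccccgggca
MCOLN1 (chr19:7522564-7522623, + strand): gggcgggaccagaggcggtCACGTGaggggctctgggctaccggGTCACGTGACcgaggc
LAMP1 (chr13:113297039-113297238, + strand): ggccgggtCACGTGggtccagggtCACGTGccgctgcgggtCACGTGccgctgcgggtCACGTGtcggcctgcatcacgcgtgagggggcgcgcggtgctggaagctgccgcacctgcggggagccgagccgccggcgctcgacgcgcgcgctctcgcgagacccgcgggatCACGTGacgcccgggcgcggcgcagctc
CTSA (chr20:45891275-45891334, + strand): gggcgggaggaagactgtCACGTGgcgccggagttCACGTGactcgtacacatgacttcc
CTSD (chr11:1763928-1763987, - strand): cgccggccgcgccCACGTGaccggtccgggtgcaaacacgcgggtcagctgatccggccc
ATG3 (chr3:112561963-112562022, - strand): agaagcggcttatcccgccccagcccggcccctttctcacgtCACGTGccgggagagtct
MAP1LC3B (chr16:87392276-87392335, + strand): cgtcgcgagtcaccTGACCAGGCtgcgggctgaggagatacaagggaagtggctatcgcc

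GAA held 2 CLEAR elements, which begin 78 and 33 bases before the start, and MCOLN1 held 1, which begins 16 bases before it. The CLEAR element was in 2 of 15 lysosomal windows, in 0 of 20 windows of the autophagy machinery and in 0.353% of all 35116 windows. The CACGTG core was in 6 of 15 lysosomal windows (ATP6V0D1, CTSA, CTSD, GAA, LAMP1 and MCOLN1), in 1 of 20 autophagy windows (ATG3) and in 7.26% of all windows. LAMP1 held 6 copies, 5 of them in the stretch printed above. TGACNNNGC was in 9 of 15 lysosomal windows, in 1 of 20 autophagy windows and in 13.3% of all windows. A match is a description of these letters and not a binding site.

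Probe signals came in one deposited table and quantile-normalized log2 levels in another, called the value table here, and their VP effects differed. The signals were the main source and the value table is given beside them. Over 9696 genes, the log2 change with VP in one table correlated with that in the other at -0.073 in AGS and -0.11 in MKN45, across genes, which are not independent replicates. FAT1, the gene that the study describes as lowered by VP, had a log2 change of 0.62 in AGS (SE 0.13, adjusted p = 0.00137) and 0.29 in MKN45 (SE 0.13, adjusted p = 0.0855) in the signals, so the signals went against the study there. It had changes of -2.17 and -1.498 (SE 0.061 in both lines, adjusted p = 2.11e-16 and 2.47e-13) in the value table, the direction that the study describes. The link between a column of one table and a column of the other rests on its name, and 2 of the 12 value columns had their best rank correlation with the signals of the same name. All 6 AGS value columns, VP included, were closest to the signals of AGS DMSO replicate 3, and all 6 MKN45 value columns to those of MKN45 DMSO replicate 2. For the arrays, the methods refer to a series other than this one. Which table holds the RNA that the labels describe was not tested, and VP and DMSO below are the words of the labels.

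In the value table the values of rows past row 21197 in the order of the signal table belong to the probe of the next row, and its names were moved by 1 there. This concerns the probes that stand for 9 members. Median signals of the arrays were 98.4 to 137, and each array detected 14523 to 16571 probes (detection p-value under 0.01). Replicates of a group correlated at 0.987 to 0.994 in the signals and 0.996 to 0.998 in the value table. Of 6 epithelial marker genes 6 were tested, of 6 fibroblast markers 0, and of 6 leukocyte markers only LYZ, which gastric epithelium can express too and which was called lower with VP in the value table (-0.53 and -0.68) and not called in the signals. Epithelial markers moved both ways. In the signals CLDN7 was higher in both lines (1.30 and 0.41), CLDN4 in AGS (0.55) and EPCAM in MKN45 (0.30), whereas KRT8 was lower in both (-0.86 and -0.83) and KRT19 in MKN45 (-0.63). Value-table calls were KRT18 (0.35) and KRT8 (0.22) higher in AGS, and EPCAM (-0.64 and -0.37) lower in both lines and KRT18 (-0.40) in MKN45. The part of such shifts in the results below was not tested. The number of arrays limits the precision.

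Members had 60 probes, of which 47 were detected on all 3 arrays of at least 1 group and were tested. They covered 33 members, 14 of the autophagy machinery and 19 lysosomal, and the brightest tested probe stood for its gene in both tables. TFEB, the receptor gene NBR1, the LC3 gene MAP1LC3A and HEXA, the alpha chain of beta-hexosaminidase, were above background on no array of the signals. The single TFEB probe had log2 levels of 5.02, 5.001 and 5.01 with DMSO and 4.91, 4.997 and 4.86 with VP in AGS, and of 4.81, 4.75 and 4.65 and 4.94, 4.78 and 4.83 in MKN45, all below the lowest level of 5.51 to 5.94 at which a probe was detected. ATG13, which encodes a partner of ULK1, was above background on 1 DMSO and 1 VP array of AGS. No change is given for these 5 genes.

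**Figure D1:**
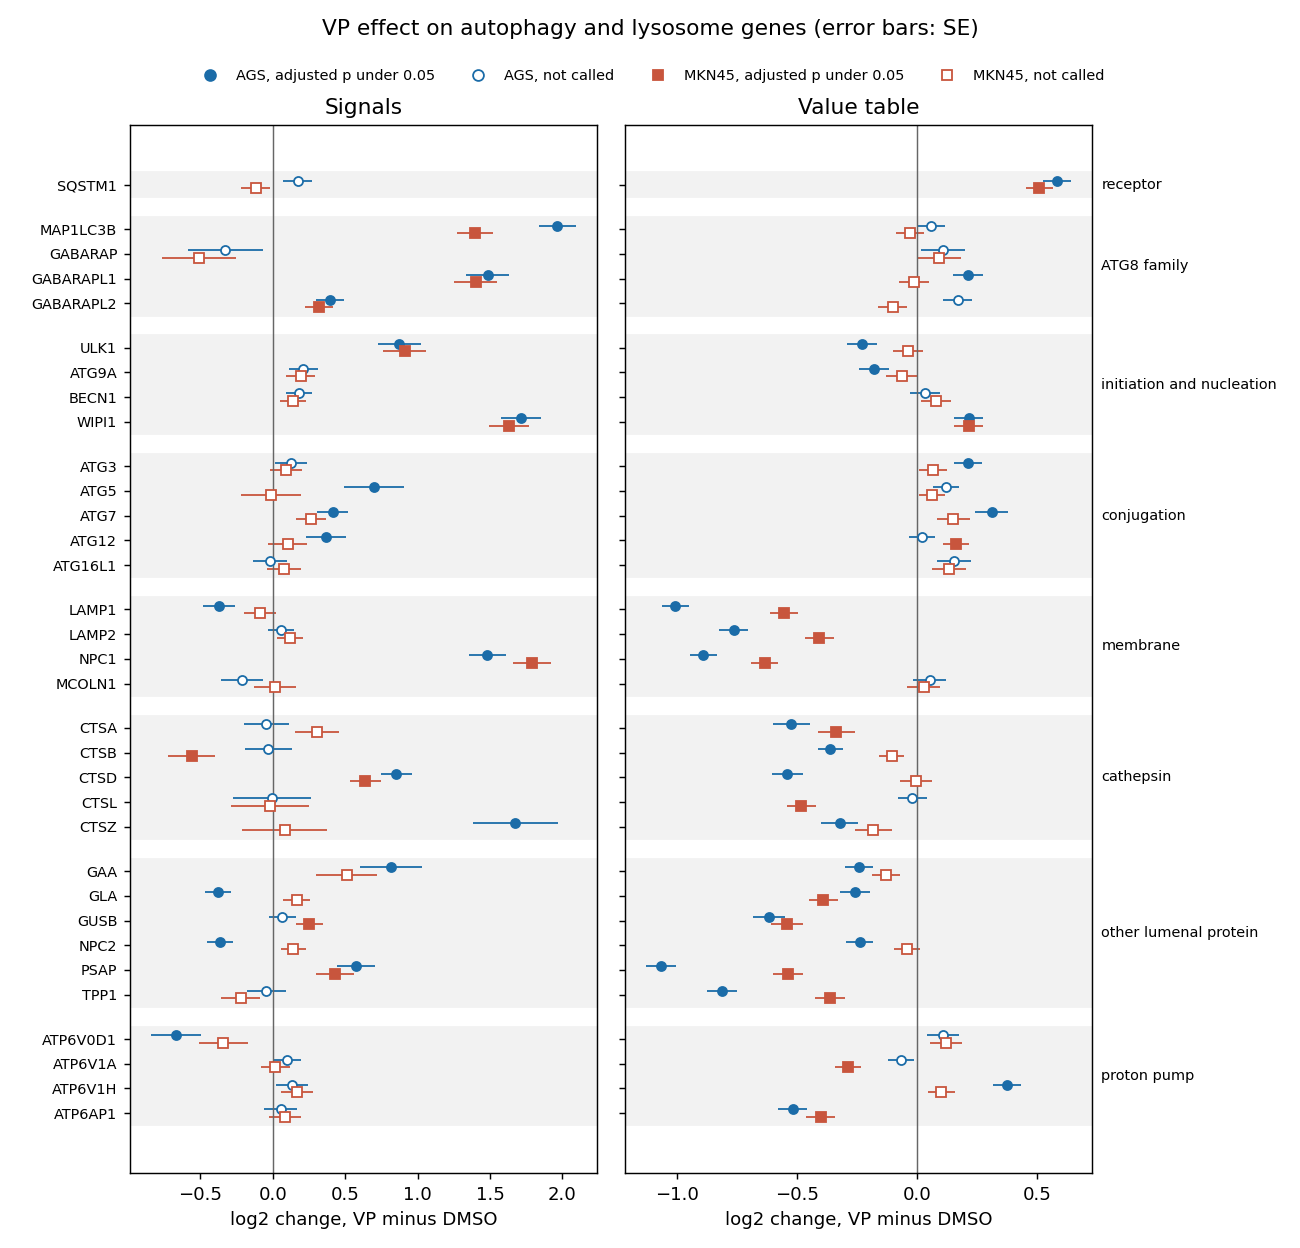
Log2 change with VP (x axis, VP minus DMSO) of the 33 tested members (y axis, grouped by role) in the signals (left) and in the value table (right); circles are AGS, squares are MKN45, filled symbols have an adjusted p under 0.05 and bars are the standard error. MAP1LC3B, GABARAPL1, WIPI1 and NPC1 lie between 1.40 and 1.97 in the signals, whereas most lysosomal members lie below 0 in the value table.

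In the signals, 5 genes of the autophagy machinery were higher with VP in both lines: MAP1LC3B, GABARAPL1, GABARAPL2, WIPI1 and ULK1. MAP1LC3B, GABARAPL1 and WIPI1 were 2.63-fold to 3.91-fold higher. Of the 14 tested genes of the autophagy machinery, 8 were called higher (adjusted p under 0.05) and 0 lower in AGS, where 25.6% of all 9696 genes were called higher and 29.2% lower (54.8% in all). In MKN45, 5 were called higher and 0 lower, against 22.3% and 22.1% of all genes (44.3% in all). The median log2 change of the 14 was 0.38 in AGS and 0.16 in MKN45, and that of all genes was -0.03 and -0.02. All 3 VP arrays lay above all 3 DMSO arrays for 10 of the 14 in AGS and 8 in MKN45, as they did for 28.7% and 27.2% of all genes, and below them for 0 in either line, as for 32.8% and 27.4%. Those 5 were all the genes called in MKN45, and 16.3% of all genes were higher in both lines.

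MAP1LC3B encodes LC3B, the ubiquitin-like protein whose lipid-bound form marks autophagosomes. Its log2 levels in AGS were 8.29, 8.29 and 8.32 with DMSO and 10.07, 10.37 and 10.35 with VP. In MKN45 they were 8.64, 8.79 and 8.71 with DMSO and 10.25, 10.24 and 9.83 with VP. Every VP array was above every DMSO array in each line, by 3.91-fold on average in AGS (log2 change 1.97, SE 0.13, adjusted p = 8.33e-08) and 2.63-fold in MKN45 (1.40, SE 0.13, adjusted p = 2.94e-06). The difference between the lines, -0.57 (SE 0.18), did not pass the test (adjusted p = 0.0637). MAP1LC3B has a nearly identical copy, MAP1LC3B2, and GABARAPL1 has a copy, GABARAPL3, and whether the probes tell them apart was not tested.

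GABARAPL1 and GABARAPL2 encode relatives of LC3 that join the same membrane. GABARAPL1 levels in AGS were 8.36, 8.30 and 8.47 with DMSO and 10.08, 9.93 and 9.56 with VP, and in MKN45 8.86, 8.45 and 8.73 with DMSO and 9.92, 10.29 and 10.03 with VP. The groups did not overlap in either line, and the log2 changes were 1.48 (SE 0.15, adjusted p = 4.38e-06) and 1.40 (SE 0.15, adjusted p = 1.33e-05). GABARAPL2 levels in AGS were 11.06, 10.96 and 10.91 with DMSO and 11.50, 11.31 and 11.31 with VP, and in MKN45 11.12, 11.20 and 10.996 with DMSO and 11.47, 11.43 and 11.38 with VP. Its groups did not overlap either, but the changes were smaller, at 0.40 (SE 0.10, adjusted p = 0.00412) and 0.32 (SE 0.10, adjusted p = 0.0181). A dimmer probe of GABARAPL2 had changes of -0.16 and 0.13, neither of them called. Without MKN45 DMSO replicate 3, MKN45 VP replicate 1 or MKN45 VP replicate 2 the call of GABARAPL2 in MKN45 was lost (adjusted p up to 0.077, change 0.27 to 0.37). GABARAP itself had changes of -0.33 (SE 0.26) and -0.51 (SE 0.26), neither called, with the DMSO arrays of MKN45 spread from 5.97 to 7.16.

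WIPI1 encodes a protein that binds the lipid mark of the forming membrane. Its levels in AGS were 6.99, 6.77 and 6.91 with DMSO and 8.66, 8.63 and 8.50 with VP. In MKN45 they were 5.91, 5.84 and 5.47 with DMSO, where 2 of 3 arrays were above background, and 7.33, 7.61 and 7.19 with VP. All VP arrays were above all DMSO arrays of their line, with changes of 1.71 in AGS (SE 0.14, adjusted p = 6.04e-07) and 1.63 in MKN45 (SE 0.14, adjusted p = 1.58e-06). ULK1, the kinase that starts the process, went from 9.37, 9.01 and 9.35 to 10.21, 10.16 and 9.98 in AGS and from 8.58, 8.27 and 8.46 to 9.40, 9.58 and 9.06 in MKN45. Its groups did not overlap, the changes were 0.87 (SE 0.15, adjusted p = 0.000275) and 0.91 (SE 0.15, adjusted p = 0.000335), and a second probe gave 0.79 and 0.85, both called. The membrane protein ATG9A and BECN1, a subunit of the lipid kinase complex, had changes of 0.14 to 0.21 that were not called in either line.

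Of the conjugation genes, ATG7, the activating enzyme of both systems, was higher in AGS (log2 change 0.41, SE 0.11, adjusted p = 0.00537) and at 0.26 in MKN45 (adjusted p = 0.061). ATG12 and ATG5, whose products are joined to each other, were higher in AGS by 0.37 (SE 0.14, adjusted p = 0.0383) and 0.70 (SE 0.21, adjusted p = 0.0123). ATG5 was above background on 1 of the 3 AGS DMSO arrays, and without AGS DMSO replicate 1 its change was 0.46 (adjusted p = 0.0558). The call of ATG12 in AGS was lost without AGS DMSO replicate 1 or 2, any one AGS VP array or MKN45 VP replicate 2 (adjusted p up to 0.132, change 0.30 to 0.47). In MKN45 the changes were 0.10 for ATG12 and -0.01 for ATG5, and neither difference between the lines passed the test (adjusted p = 0.408 and 0.14). ATG3 and ATG16L1, the other conjugation genes tested, had changes between -0.02 and 0.13 and were not called.

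SQSTM1, the gene of p62, was among the brightest members in the signals. Its levels in AGS were 12.96, 12.97 and 12.93 with DMSO and 13.15, 13.16 and 13.08 with VP, so the VP arrays lay above the DMSO arrays, but the change of 0.17 (SE 0.10) was not called (adjusted p = 0.162). In MKN45 its levels were 12.77, 12.54 and 12.69 with DMSO and 12.67, 12.57 and 12.41 with VP, which overlap (change -0.12, SE 0.10, adjusted p = 0.355).

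**Figure D2:**
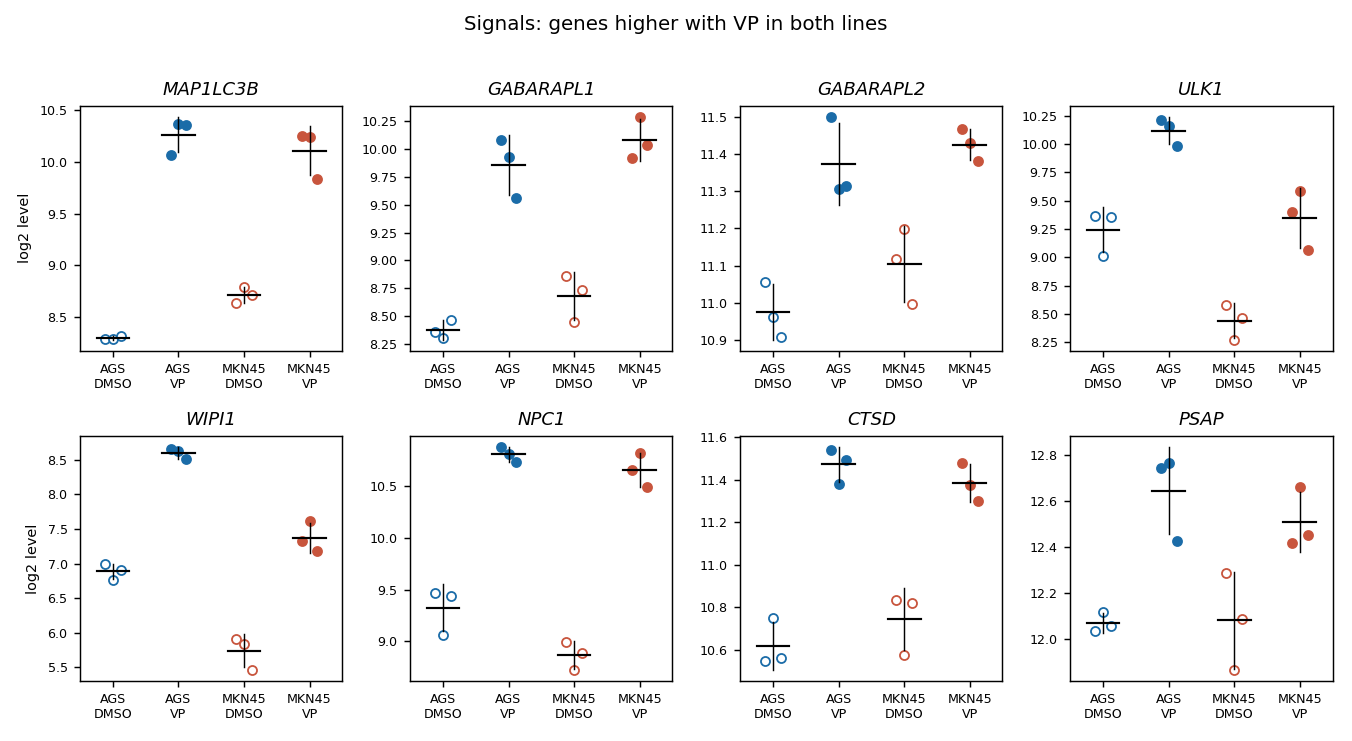
Log2 levels in the signals (y axis) on each array of the 8 members called higher with VP in both lines, by group (x axis); open points are DMSO, filled points are VP, and black lines give the mean and 1 standard deviation over 3 arrays. The VP and DMSO points do not overlap within a line in any of the panels, and the largest steps are those of MAP1LC3B, WIPI1, NPC1 and GABARAPL1.

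The lysosomal genes did not move one way in the signals. Of 19 tested, 5 were called higher and 4 lower in AGS, where 25.6% and 29.2% of all genes were, and 4 higher and 1 lower in MKN45, where 22.3% and 22.1% were, so the shares called higher were close to those of all genes. Their median log2 change was 0.05 in AGS and 0.12 in MKN45. The VP arrays lay above the DMSO arrays for 5 of the 19 in AGS and 7 in MKN45 (28.7% and 27.2% of all genes), and below them for 4 and 2 (32.8% and 27.4%). NPC1, CTSD and PSAP were called higher in both lines. By the probe that stands for the gene, 0 members of either module were called lower in both, where 16.7% of all genes were. A LAMP2 probe that does not stand for its gene, ILMN_2279961, was called lower in both (-0.34 and -0.30). With each array shifted to a common median in place of quantile normalization, the median of all genes moved to 0.15 in AGS and 0.27 in MKN45, and none of the lysosomal genes was called lower in either line.

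NPC1 encodes the membrane protein that, with the lumenal NPC2, exports cholesterol from the lysosome. Its levels in AGS were 9.47, 9.06 and 9.44 with DMSO and 10.88, 10.81 and 10.74 with VP. In MKN45 they were 8.99, 8.73 and 8.89 with DMSO and 10.66, 10.82 and 10.49 with VP. Every VP array was above every DMSO array, with changes of 1.48 in AGS (2.80-fold, SE 0.13, adjusted p = 1.24e-06) and 1.79 in MKN45 (3.46-fold, SE 0.13, adjusted p = 3.97e-07). NPC2 did not follow it: in AGS its levels were 13.16, 12.99 and 13.08 with DMSO and 12.69, 12.73 and 12.72 with VP (change -0.36, SE 0.09, adjusted p = 0.00364), without overlap. In MKN45 they were 13.03, 12.98 and 12.95 with DMSO and 13.14, 13.08 and 13.17 with VP (change 0.14, SE 0.09, adjusted p = 0.212), the VP arrays being the higher ones.

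CTSD, the aspartic protease cathepsin D, went from 10.55, 10.75 and 10.56 to 11.54, 11.38 and 11.49 in AGS and from 10.84, 10.58 and 10.82 to 11.48, 11.37 and 11.30 in MKN45. The groups did not overlap, and the changes were 0.85 (SE 0.11, adjusted p = 2.57e-05) and 0.64 (SE 0.11, adjusted p = 0.000423). PSAP encodes prosaposin, the precursor of the saposins that help enzymes reach lipids. It went from 12.04, 12.12 and 12.05 to 12.74, 12.76 and 12.43 in AGS and from 12.29, 11.87 and 12.09 to 12.42, 12.66 and 12.45 in MKN45. Its groups did not overlap, and the changes were 0.58 (SE 0.13, adjusted p = 0.00226) and 0.43 (SE 0.13, adjusted p = 0.0168). Without MKN45 DMSO replicate 2 or MKN45 VP replicate 2 the call of PSAP in MKN45 was lost (adjusted p up to 0.0785, change 0.32 to 0.53), and a second PSAP probe gave 0.54 and 0.38, both called.

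The other lysosomal calls were made in one line. CTSZ, a cysteine carboxypeptidase, had levels in AGS of 6.07, 6.56 and 6.34 with DMSO and 8.27, 8.28 and 7.44 with VP (change 1.67, SE 0.29, adjusted p = 0.000368). In MKN45 its levels were 7.09, 6.62 and 7.45 with DMSO and 7.72, 6.61 and 7.07 with VP, which overlap (change 0.08, SE 0.29). The glycogen-degrading enzyme GAA was higher in AGS (0.82, SE 0.21, adjusted p = 0.00577) and at 0.51 in MKN45 (adjusted p = 0.0687), where a dimmer probe of it was called (0.59, adjusted p = 0.00322). GUSB, a beta-glucuronidase, was higher in MKN45 by 0.25 (SE 0.09, adjusted p = 0.0445), a call lost without any one of 9 of the 12 arrays, AGS DMSO replicate 2, AGS VP replicate 3 and MKN45 VP replicate 3 excepted (adjusted p up to 0.151, change 0.21 to 0.32).

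Lower in AGS besides NPC2 were LAMP1, a main glycoprotein of the lysosomal membrane (-0.37, SE 0.11, adjusted p = 0.0128), GLA, alpha-galactosidase A (-0.38, SE 0.09, adjusted p = 0.00379), and ATP6V0D1, a subunit of the membrane sector of the proton pump (-0.67, SE 0.17, adjusted p = 0.00529). Without AGS DMSO replicate 1 the call of LAMP1 was lost (change -0.32, adjusted p = 0.0526). Lower in MKN45 was the cysteine protease gene CTSB (-0.56, SE 0.16, adjusted p = 0.0144), a call lost without MKN45 DMSO replicate 2 or MKN45 VP replicate 1 (adjusted p up to 0.0688, change -0.69 to -0.41). A second CTSB probe gave -0.47 there, also called. CTSA, CTSL, TPP1, the channel gene MCOLN1 and the pump genes ATP6V1A, ATP6V1H and ATP6AP1 had changes between -0.22 and 0.31 and were called in neither line. CTSL was above background on 1 DMSO and 1 VP array of AGS. A dim probe of ATP6V1H passed the detection filter only through groups with VP, where it was high, so no p-value is given for it in the signals. It was higher by 0.54 in AGS, with 1 of 3 DMSO arrays above background. In MKN45 it was higher by a log2 change of at least 0.15, with 0 of 3.

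The VP effect differed between the lines by its own test in 3 members, all lysosomal, where 9.47% of all genes differed. The effect in MKN45 minus that in AGS was -1.59 for CTSZ (SE 0.41, adjusted p = 0.0321), 0.54 for GLA (SE 0.13, adjusted p = 0.0232) and 0.51 for NPC2 (SE 0.12, adjusted p = 0.0257). GLA levels in AGS were 10.24, 10.18 and 10.20 with DMSO and 9.86, 9.80 and 9.82 with VP, and in MKN45 10.49, 10.39 and 10.31 with DMSO and 10.65, 10.46 and 10.57 with VP. GLA thus fell in AGS without overlap and overlapped in MKN45. The call of CTSZ was lost without any one of 8 arrays (adjusted p up to 0.0809, difference -1.88 to -1.32), that of GLA without any one of 4 (up to 0.0583, 0.50 to 0.60) and that of NPC2 without any one of 6 (up to 0.0664, 0.45 to 0.54). Without AGS DMSO replicate 1, AGS VP replicate 2 or MKN45 DMSO replicate 3, 0 members differed between the lines.

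With DMSO alone, 7 members differed between the lines in the signals. MAP1LC3B and ATG9A were higher in MKN45, by 0.42 (SE 0.13, adjusted p = 0.0414) and 0.38 (SE 0.10, adjusted p = 0.0207), where 7.26% of all genes were. Lower in MKN45, as were 9.45% of all genes, were WIPI1 by a log2 change of -1.15 (SE 0.14, adjusted p = 0.000108), ULK1 by -0.81 (SE 0.15, adjusted p = 0.0025), NPC1 by -0.46 (SE 0.13), GUSB by -0.32 (SE 0.09) and LAMP2 by -0.28 (SE 0.09). Leaving out each array in turn gave 2 to 6 such members, the fewest without AGS DMSO replicate 1 or MKN45 DMSO replicate 3. The value table was normalized within each line by the authors and gives no such comparison.

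The value table gave another picture, in which lysosomal genes called with VP were lower, ATP6V1H in AGS excepted. Of the 19 lysosomal genes, 14 were called lower and 1 higher in AGS, where 13.4% of all genes were lower and 14.7% higher (28.1% in all). In MKN45, 11 were called lower and 0 higher, where 10.1% of all genes were lower and 9.92% higher (20.0% in all). Their median log2 change was -0.36 in AGS and -0.34 in MKN45, and that of all genes was 0.02 and 0.01. In both lines 9 lysosomal genes were lower, where 6.45% of all genes were: LAMP1, LAMP2, NPC1, CTSA, GLA, GUSB, PSAP, TPP1 and ATP6AP1. All 3 VP arrays lay below all 3 DMSO arrays for 15 of the 19 in AGS and 13 in MKN45, where 18.1% and 16.6% of all genes did so, and above them for 2 and 0, where 22.2% and 20.4% did.

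Among the probes that stand for a gene, PSAP had the largest fall in AGS, from 11.22, 11.12 and 11.21 with DMSO to 10.08, 10.16 and 10.11 with VP. In MKN45 it went from 11.12, 11.07 and 11.01 to 10.61, 10.57 and 10.40. The groups did not overlap in either line, and the changes were -1.06 (SE 0.062, adjusted p = 1.29e-11) and -0.54 (SE 0.062, adjusted p = 1.45e-06). LAMP1 went from 10.98, 11.07 and 10.95 to 10.05, 9.97 and 9.97 in AGS and from 11.43, 11.50 and 11.55 to 10.96, 10.93 and 10.92 in MKN45. Its VP arrays were all below its DMSO arrays (log2 changes -1.005 and -0.55, SE 0.056, adjusted p = 6.75e-12 and 2.39e-07).

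NPC1 went from 8.87, 8.88 and 8.86 to 8.05, 7.92 and 7.97 in AGS and from 9.24, 9.17 and 9.27 to 8.57, 8.57 and 8.65 in MKN45. These changes of -0.89 and -0.63 (SE 0.056, adjusted p = 4.80e-11 and 3.06e-08) are opposite to those of the signals. TPP1, a tripeptidyl peptidase, went from 7.94, 7.99 and 8.14 to 7.16, 7.21 and 7.27 in AGS (change -0.81, SE 0.062) and had a change of -0.36 in MKN45. GUSB (-0.61 and -0.54), CTSA (-0.52 and -0.34), ATP6AP1, an accessory protein of the pump (-0.52 and -0.40), and GLA (-0.26 and -0.39) were lower in both lines too, with adjusted p of 0.0033 or less. CTSD (-0.54), CTSB (-0.36), CTSZ (-0.32), GAA (-0.24) and NPC2 (-0.24) were called lower in AGS, and CTSL (-0.48) and ATP6V1A (-0.29), the catalytic subunit of the pump, in MKN45. A dimmer CTSB probe was lower in both lines (-0.38 and -0.41, adjusted p = 0.000145 and 9.85e-05). The exception was ATP6V1H, another pump subunit, higher in AGS by 0.37 (SE 0.058, adjusted p = 3.79e-05), where its dim probe had 0.06 (adjusted p = 0.603).

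**Figure D3:**
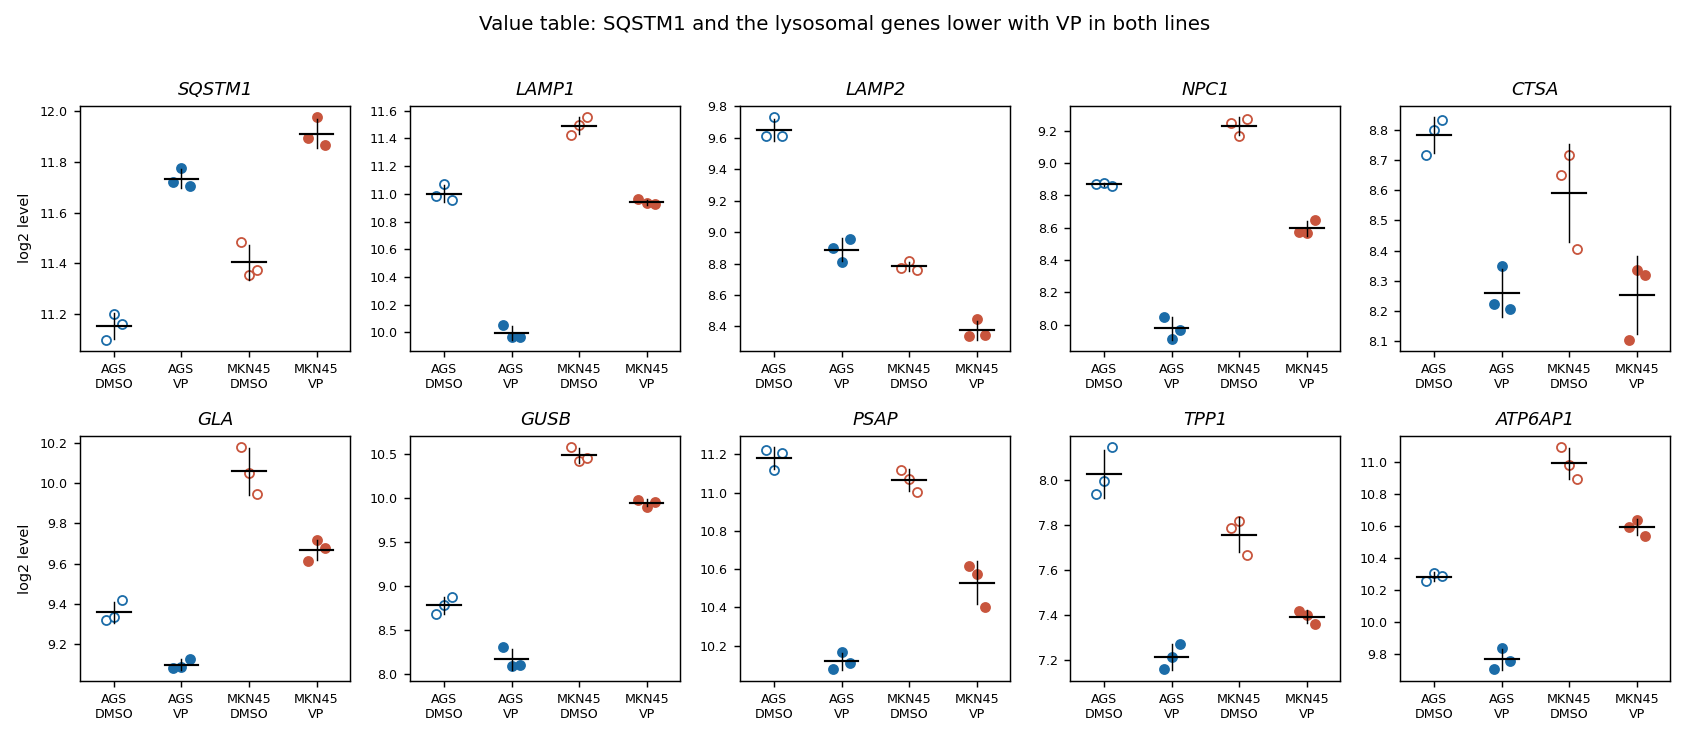
Log2 levels in the value table (y axis) on each array of SQSTM1 and of the 9 lysosomal members called lower with VP in both lines, by group (x axis); open points are DMSO, filled points are VP, and black lines give the mean and 1 standard deviation over 3 arrays, with levels of the lines not on one scale. VP points lie above DMSO points for SQSTM1 and below them for the lysosomal genes in both lines.

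LAMP2, which encodes the other main membrane glycoprotein of the lysosome in several splice forms, had 5 tested probes. All of them were lower with VP in both lines in the value table. The probe ILMN_2279961, annotated to the transcript of isoform B, went from 10.15, 10.15 and 10.18 to 8.51, 8.46 and 8.70 in AGS and from 10.10, 10.14 and 10.08 to 9.08, 9.03 and 8.99 in MKN45, and its changes of -1.61 and -1.07 (SE 0.061) were the largest of any member probe in that table. Another isoform B probe, ILMN_1752351, had -1.34 and -0.94. The third isoform B probe, ILMN_1659753, and both isoform A probes had -0.85 to -0.76 in AGS and -0.54 to -0.29 in MKN45. In the signals ILMN_2279961 was the one LAMP2 probe called, at -0.34 in AGS (SE 0.09, adjusted p = 0.00892) and -0.30 in MKN45 (SE 0.09, adjusted p = 0.0197), and the others had changes between -0.12 and 0.12. Isoform A is the receptor of chaperone-mediated autophagy. Which splice forms each probe reads was not tested.

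**Figure D4:**
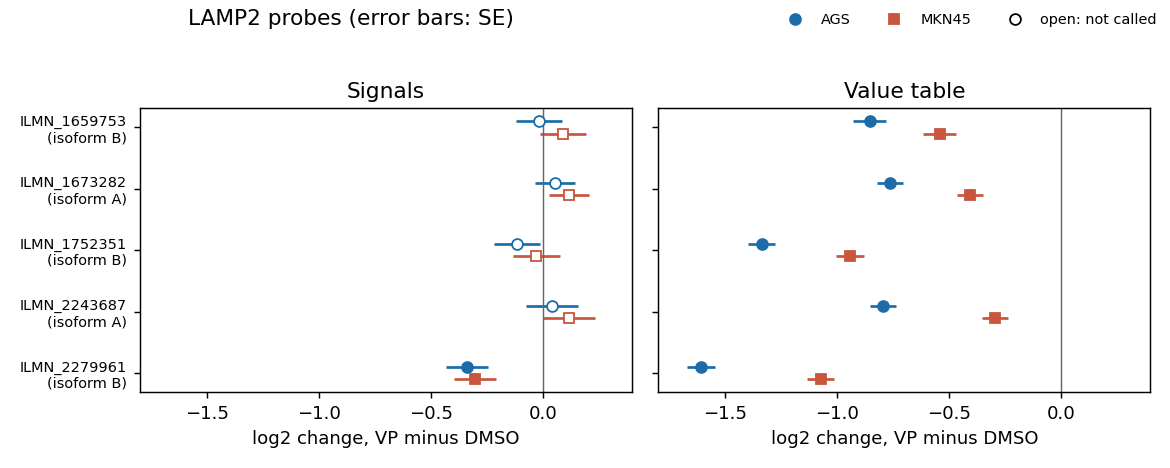
Log2 change with VP (x axis, VP minus DMSO) of the 5 tested LAMP2 probes (y axis, with the isoform whose transcript each is annotated to) in the signals (left) and the value table (right); circles are AGS, squares MKN45, open symbols were not called and bars are the standard error. The probe ILMN_2279961 is the lowest in both tables.

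Of the 14 autophagy genes in the value table, 5 were called higher and 2 lower in AGS, where 14.7% and 13.4% of all genes were, and 3 higher and 0 lower in MKN45, where 9.92% and 10.1% were. Their median log2 changes were 0.14 and 0.07. All 3 VP arrays lay above all 3 DMSO arrays for 7 and 6 of them (22.2% and 20.4% of all genes) and below for 2 in each line (18.1% and 16.6%). SQSTM1 and WIPI1 were higher in both lines, where 3.66% of all genes were. SQSTM1 went from 11.10, 11.20 and 11.16 to 11.72, 11.78 and 11.71 in AGS and from 11.48, 11.35 and 11.37 to 11.89, 11.98 and 11.87 in MKN45. The groups did not overlap, and the changes were 0.58 (SE 0.058, adjusted p = 5.86e-08) and 0.51 (SE 0.058, adjusted p = 1.04e-06). WIPI1 had changes of 0.21 in both lines (SE 0.06, adjusted p = 0.0114 and 0.0153). Its call was lost in AGS without AGS VP replicate 3 (0.18, adjusted p = 0.0513), and in MKN45 without MKN45 DMSO replicate 1 or MKN45 VP replicate 3 (adjusted p up to 0.102, change 0.17 to 0.25).

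MAP1LC3B, whose change in AGS was the largest of any member gene in the signals, had value-table levels of 7.98, 7.86 and 8.04 with DMSO and 7.98, 8.03 and 8.04 with VP in AGS, and of 8.47, 8.48 and 8.58 and 8.44, 8.50 and 8.51 in MKN45. The groups overlapped in both lines (changes 0.06 and -0.03, SE 0.059, adjusted p = 0.513 and 0.805). GABARAPL1 levels in that table were 7.32, 7.29 and 7.13 with DMSO and 7.50, 7.41 and 7.46 with VP in AGS (0.21, SE 0.063, adjusted p = 0.0161), and 7.52, 7.59 and 7.43 and 7.44, 7.57 and 7.50 in MKN45 (-0.01). Its AGS call was lost without AGS DMSO replicate 3 or AGS VP replicate 1 (adjusted p up to 0.111, change 0.15 to 0.25). ATG7 (0.31) and ATG3 (0.21) were the other genes higher in AGS, and ATG12 (0.16) the other in MKN45, a call lost without any one of 5 MKN45 arrays, DMSO replicate 3 excepted (adjusted p up to 0.122, change 0.15 to 0.19). The other tested probes of ATG3 in AGS (0.16, adjusted p = 0.0728) and of ATG12 in MKN45 (0.08, adjusted p = 0.487) were not called. ULK1 was lower in AGS (-0.23, SE 0.063, adjusted p = 0.0103), as was ATG9A (-0.18, SE 0.063, adjusted p = 0.0399), whose dimmer probe was lower in both lines (-0.18 and -0.19, adjusted p = 0.0373 and 0.0395). A second ULK1 probe was not called in AGS (-0.16, adjusted p = 0.103). The ULK1 call was lost without AGS VP replicate 2 (-0.15, adjusted p = 0.0899). That of the brighter ATG9A probe was lost without AGS DMSO replicate 2 or 3 or AGS VP replicate 2 or 3 (adjusted p up to 0.191, change -0.23 to -0.12).

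The calls of the tables were set side by side for the members. Shares of all genes called alike or in opposite directions were not computed, so the counts of members have no reference. Called in neither table were 6 members in AGS and 13 in MKN45. In AGS, GABARAPL1, WIPI1 and ATG7 were called higher in both tables, and LAMP1, GLA and NPC2 lower in both. ULK1, NPC1, CTSD, CTSZ, GAA and PSAP were called higher in the signals and lower in the value table. In MKN45, WIPI1 was called higher in both tables, and NPC1, GUSB and PSAP were called in opposite directions. No member was called lower in the signals and higher in the value table in either line.

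Of the rest of the pathway, 32 other autophagy genes were tested. In the signals 11 were called higher and 2 lower in AGS, where 25.6% and 29.2% of all genes were, and 12 higher and 3 lower in MKN45, where 22.3% and 22.1% were, with median log2 changes of 0.26 and 0.29. BNIP3L, a receptor for mitochondria, was higher in both lines (1.46 in AGS and 0.85 in MKN45, SE 0.15). WDR45, a relative of WIPI1, was too (1.10 and 0.51, SE 0.11). TOLLIP, an adaptor for ubiquitinated cargo, was at least 2.03-fold lower in AGS (adjusted p = 0.000197), since it was above background on 0 of the 3 VP arrays there. Such a bound sets the dim group at the lowest detected level of each array. In MKN45 TOLLIP was lower by a log2 change of -0.62 (adjusted p = 0.0326). ATG14, a subunit of the lipid kinase complex, was called lower in AGS only (-0.34). RB1CC1, which encodes the scaffold FIP200 of the ULK1 complex, was higher in both lines (0.90 in AGS and 0.72 in MKN45, SE 0.11). So was the receptor gene TAX1BP1 (0.76 and 0.69, SE 0.10). ATG10, a conjugating enzyme (-0.61), and WIPI2 (-0.35) were called lower in MKN45 only. In the value table, 5 of the 32 were higher and 1 lower in AGS (14.7% and 13.4% of all genes), among them ATG101 (0.30), ATG4A (0.33) and TMEM41B (-0.34). In MKN45, 0 were higher and 4 lower (9.92% and 10.1%), among them TMEM41B (-0.35), BNIP3 (-0.69) and BNIP3L (-0.47). BNIP3L in MKN45 was thus called in opposite directions by the tables.

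Of 31 other lysosomal genes tested, 22 were lower and 0 higher in AGS in the value table, where 13.4% and 14.7% of all genes were, and 15 lower and 0 higher in MKN45, where 10.1% and 9.92% were. SCARB2, the membrane protein that carries glucocerebrosidase to the lysosome, had changes of -1.27 in AGS and -0.64 in MKN45 (SE 0.054). GALC, a galactosylceramidase, had -1.11 in AGS and -0.39 in MKN45, and the protease gene CTSC -0.95 and -0.69, all called. In the signals 8 of the 31 were higher and 7 lower in AGS, and 7 higher and 2 lower in MKN45, and the shares called higher were close to the 25.6% and 22.3% of all genes (29.2% and 22.1% lower). There GALC (-0.95 and -0.84, SE 0.13) and the cystine transporter gene CTNS (-0.93 and -0.74, SE 0.13) were lower in both lines. CTSC (0.68 and 0.49) and the ganglioside activator gene GM2A (0.76 and 1.26, SE 0.15) were higher in both lines. LAPTM4A was called higher in AGS only (0.95, with 0.20 in MKN45). SMPD1, acid sphingomyelinase, was called higher in MKN45 only (1.03, SE 0.11, with -0.03 in AGS). In the value table GM2A (-0.21 and -0.23, adjusted p = 0.0126 and 0.0105) and LAPTM4A (-0.35 and -0.20, adjusted p = 0.000538 and 0.0428) were lower in both lines. CTSC and GM2A in both lines, and LAPTM4A in AGS, were thus called in opposite directions by the tables.

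Of 11 other subunits and accessory proteins of the proton pump tested, 6 were lower and 0 higher in AGS in the signals, where 29.2% and 25.6% of all genes were, and 2 lower and 1 higher in MKN45, where 22.1% and 22.3% were. ATP6V1C1 was lower in both lines, by log2 changes of -1.20 and -0.95 (SE 0.16), as was ATP6V1B2 (-0.50 and -0.36, SE 0.12). ATP6V0A1 was called lower in AGS only (-0.61), and ATP6AP2 higher in MKN45 only (0.40). There were 4 higher and 3 lower in AGS in the value table (14.7% and 13.4% of all genes), and 1 higher and 2 lower in MKN45 (9.92% and 10.1%). The pump-associated ATP6AP2 had -1.05 and -0.69 there (SE 0.063) and ATP6V0A1 -0.32 and -0.25, whereas ATP6V1F and ATP6V1E1 were higher in AGS (0.34 each) and ATP6V1G1 in MKN45 (0.24).

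Of 20 genes of the mTORC1 pathway at the lysosome and of the TFE factors, 3 were higher and 7 lower in AGS in the signals, and 3 higher and 5 lower in MKN45, against 25.6% and 29.2% of all genes in AGS and 22.3% and 22.1% in MKN45. DEPTOR, an inhibitor of mTOR, was above background on 0 of the 6 DMSO arrays and on all VP arrays, and was at least 16.5-fold higher in AGS and at least 10.3-fold in MKN45. MITF, a relative of TFEB, was above background only on the 3 VP arrays of MKN45, where it was at least 1.54-fold higher than with DMSO. Each of these genes passed the detection filter only through groups where it was high, so no p-value is given for the signals. In the value table MITF was above background on all MKN45 arrays and was not called there (0.17, adjusted p = 0.0763). The amino acid sensor gene SLC38A9 was called higher in AGS only (0.41), and LAMTOR5 lower in AGS only (-0.52). FNIP2 (-0.85 and -0.51) and MLST8 (-0.53 and -0.54) were lower in both lines. Of the 20, 4 were higher and 1 lower in AGS in the value table (14.7% and 13.4% of all genes) and 5 higher and 1 lower in MKN45 (9.92% and 10.1%). LAMTOR5 (0.27 and 0.18), LAMTOR2 (0.23 and 0.22) and MLST8 (0.19 and 0.20) were higher there in both lines, LAMTOR4 in AGS (0.32) and DEPTOR in MKN45 (0.41, SE 0.071). SLC38A9 was lower in both lines (-0.32 and -0.19). MLST8 in both lines, and LAMTOR5 and SLC38A9 in AGS, were thus called in opposite directions by the tables. In AGS in the value table, DEPTOR was above background on 0 DMSO and 0 VP arrays, with a change of 0.06 (adjusted p = 0.599). In MKN45 it was above background on all 3 DMSO arrays there, and on 0 of them in the signals.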

How the data were processed

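RNA of 12 samples was hybridised to Illumina HumanHT-12 V4 arrays. The authors deposited linear signal intensity values with a detection p-value per probe, made with GenomeStudio (no version is given in the sources used here, nor whether background had been subtracted). The value table that the authors deposited holds scores described as quantile-normalized log2 levels; the bottom row is on a linear scale and was dropped, and sorted values agreed within 0.001 between the arrays of a line, so the lines were normalized separately. All columns were given a sample by name, and the authors' comparisons were not used. Batches are not given in the sources used here.

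Signals were background corrected by normexp with the background estimated from detection p-values (offset 16), quantile normalized across all 12 arrays and log2 transformed (limma 3.58.1, R 4.3.3). Of 47323 probes, the 16021 detected (p-value under 0.01) on each of the 3 arrays of at least 1 group were tested. The same probes were fitted in the value table, names moved by 1 past the break (rank correlation with own name 0.924 before and 0.296 after it, with the next row 0.278 and 0.927). One limma fit per table gave the VP effect in each line, the difference of these effects and, for the signals, the difference with DMSO, with Benjamini-Hochberg adjustment over all 16021 probes. Gene names came from the platform annotation: 30113 probes had 1 gene, 8 several and 17202 none. The fit was tested on simulated data. In the value table, a probe was above background on an array when over 6.71 (AGS) or 6.73 (MKN45), set from the mode and the spread below it.

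All members are named. Levels per array are given for members called in the same direction in both lines of the signals, for those whose effect differed between the lines, and for SQSTM1, MAP1LC3B, GABARAPL1 and TFEB; PSAP, LAMP1, NPC1, TPP1 and LAMP2 were added in the value table after their values were seen. Of other lists, the 2 genes with the smallest p in each direction and line are named. Members and lists were chosen with earlier results of these data known. Alternatives were the offset, the background correction, the scaling, the filter, 1 probe per gene, the replicate block, each line alone, an ordinary two-sample t-test and leaving out each array.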

Additional observations from a re-analysis of the deposited data

Results flagged for a closer look

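The VP effect differed between the lines by the test of the difference itself in the members below, each value being the log2 change in MKN45 minus that in AGS. In the signals these were NPC2 (0.51), GLA (0.54) and CTSZ (-1.59). NPC2 and GLA fell in AGS and had changes of 0.14 and 0.16 in MKN45, and CTSZ rose in AGS and had a change of 0.08 in MKN45.

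There were 9 lysosomal members that differed in the value table, where 9.98% of all genes did. The change was nearer 0 in MKN45 than in AGS for PSAP (0.53), CTSD (0.53), LAMP1 (0.45), TPP1 (0.45), LAMP2 (0.36), NPC1 (0.26) and CTSB (0.26). A dimmer CTSB probe had changes of -0.38 in AGS and -0.41 in MKN45, which differed by -0.03 (adjusted p = 0.902). CTSL (-0.46) fell in MKN45 and had a change of -0.02 in AGS, and ATP6V1H (-0.27) rose in AGS and had a change of 0.10 in MKN45. The calls of NPC1, CTSB and ATP6V1H were lost without any one of 10, 8 and 9 arrays, with adjusted p up to 0.12, 0.0722 and 0.101 and differences of 0.22 to 0.29, 0.24 to 0.27 and -0.31 to -0.24. None of these 12 differences was called in the other table too.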

How the results depend on the processing

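Shares of all genes called were not computed under the alternative settings of this section, so its counts are not set against all genes. With each array shifted to a common median in place of quantile normalization, 0 lysosomal genes were lower in AGS and 0 in MKN45. Higher in MKN45 were 8 autophagy and 7 lysosomal genes, and 1 member differed between the lines with VP and 4 with DMSO. Under that shift the median log2 change of all genes was 0.15 in AGS and 0.27 in MKN45. The sign turned there, with no call before, for CTSA (0.14), ATG16L1 (0.19), CTSB (0.18), TPP1 (0.17), MCOLN1 (0.049) and CTSL (0.11) in AGS and for SQSTM1 (0.059), LAMP1 (0.11), ATP6V0D1 (0.013), TPP1 (0.11), ATG5 (0.26) and CTSL (0.12) in MKN45. Without background correction 5 members differed in VP effect between the lines, and with no filter on detection 4 differed with DMSO. Each line fitted alone gave 1 autophagy gene lower in AGS in the value table. Names of the value table as deposited gave 3 autophagy genes higher and 1 lower in AGS and 1 higher in MKN45. An offset of 50, quantile normalization within each line, the filter on all 12 arrays, 1 probe per gene and the value table's own background filter kept every count within 1.5 times.

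The methods name a random variance t-test, which was not run. An ordinary two-sample t-test with equal variances was used at their unadjusted threshold (p under 0.001). The share of all genes that it calls was not computed, so its counts cannot be read as high or low for the members. In the signals it gave 4 autophagy genes higher, 2 lysosomal higher and 1 lower in AGS, and 2, 1 and 0 in MKN45. In the value table it gave 1 autophagy gene higher, 0 lower and 9 lysosomal lower in AGS, and 1 autophagy higher and 5 lysosomal lower in MKN45. After Benjamini-Hochberg it gave 0 lysosomal genes lower in MKN45 in the signals. For the value table it gave 1 autophagy gene higher and 0 lower in AGS and 1 higher in MKN45.

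Whether arrays with the same replicate number belong together is not stated, and 3 arrays per group are too few to settle it. In the signals, deviations of arrays with the same number correlated at -0.11, 0.18 and -0.045 in AGS and 0.21, 0.0028 and -0.029 in MKN45. In the value table they did so at -0.083, 0.093 and 0.018 in AGS and at 0.052, 0.061 and 0.10 in MKN45. Arrays of MKN45 with different numbers correlated there at -0.099 to 0.041. With the number as a replicate block, 2 lysosomal genes were lower in MKN45, 1 member differed in VP effect and 1 with DMSO in the signals, and 1 autophagy gene was lower in AGS in the value table.

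Leaving out each array in turn in the signals gave 6 to 8 autophagy genes higher and 0 lower in AGS, 4 to 6 higher and 0 to 1 lower in MKN45, 5 lysosomal higher and 3 to 4 lower in AGS, 2 to 5 higher and 0 to 1 lower in MKN45, 0 to 4 members differing in VP effect and 2 to 6 with DMSO. In the value table it gave 4 to 6 autophagy genes higher and 0 to 2 lower in AGS, 1 to 3 higher and 0 lower in MKN45, 1 lysosomal gene higher and 14 lower in AGS, 0 to 1 higher and 11 to 12 lower in MKN45, and 6 to 8 members differing in VP effect. The sign of members not called turned without some array in AGS in the signals for ATG16L1 (-0.116 to 0.0502), CTSA (-0.132 to 0.113), CTSB (-0.157 to 0.053), CTSL (-0.299 to 0.262), in MKN45 in the signals for ATG12 (-0.017 to 0.263), ATG16L1 (-0.021 to 0.139), ATG5 (-0.086 to 0.084), ATP6AP1 (-0.0056 to 0.176), ATP6V1A (-0.034 to 0.069), CTSL (-0.308 to 0.205), CTSZ (-0.213 to 0.343), MCOLN1 (-0.067 to 0.075), in AGS in the value table for CTSL (-0.084 to 0.019) and in MKN45 in the value table for CTSD (-0.077 to 0.054), GABARAP (-0.0203 to 0.196), GABARAPL1 (-0.054 to 0.026), MAP1LC3B (-0.047 to 0.0048), MCOLN1 (-0.0203 to 0.088).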
